A study of Mus musculus with 3 samples.

Results

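A small group of cultured bone marrow cells carried RNA of *Clec9a* or *Xcr1* together with RNA of *Itgae*, and is described here with and without vitamin D. The cells were chosen by their counts of unique molecular identifiers (UMIs, tags that count captured RNA molecules). Members had at least 1 UMI of *Clec9a* and *Xcr1* together, at least 1 of *Itgae*, at most 1 of *Ccr7* and at most 3 of *Csf1r*. The rule took 106 of 16082 cells, 54 of 7257 in the untreated culture and 52 of 8825 in the treated one. Bone marrow of C57/BL6 mice had been grown with GM-CSF for 7 days and was then left untreated (Co-Mac) or given 1 μM VD3, the active form of vitamin D, for 24 hours (VD-Mac). Each condition was read as 1 droplet library, and the number, age and sex of the mice behind the cultures were not given in the sources used here. Cells from skin grafts (hSTSG), the other library of the study, were not used here. With 1 library per condition no test over samples could be made, so that every interval below is a 95% interval of counting error only and every difference lacks a replicate check.

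The files held 7866 barcodes for Co-Mac and 9794 for VD-Mac, with 136905324 and 124731240 gene UMIs in all. Cells were kept at 300 or more genes, under 100000 gene UMIs and under 10% mitochondrial UMIs. Members made up 0.744% of the kept cells of Co-Mac (0.560% to 0.970%) and 0.589% of those of VD-Mac (0.440% to 0.772%). These intervals overlapped. The members held 871114 UMIs in Co-Mac and 662710 in VD-Mac, with a median of 14640 and 12652 per cell. Their depth ran from 2620 to 43833 UMIs in Co-Mac and from 3317 to 22697 in VD-Mac. The libraries shared 19 barcodes, 15 of them kept in both, and 0 were members. Levels are given as CPM, the UMIs of a gene over the summed UMIs of the members of a library, times 1000000. A gene at 0 UMIs was set to a floor of 3 UMIs over the members for a ratio, which equals 3.44 CPM in Co-Mac and 4.53 CPM in VD-Mac. A fold given as "at least" is taken against this floor and not against the exact interval of a count of 0, whose upper limit was 4.23 CPM in Co-Mac and 5.57 CPM in VD-Mac.

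Type 1 conventional dendritic cells (cDC1) take up material of dead cells through the receptor encoded by *Clec9a* and respond to a T cell chemokine through *Xcr1*. They depend on the transcription factors *Irf8* and *Batf3* for their development, and many of them in tissues carry the integrin chain CD103, encoded by *Itgae*. VD3 acts through the nuclear receptor encoded by *Vdr*, which pairs with a retinoid X receptor, and *Cyp24a1* encodes the enzyme that breaks VD3 down.

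The values that chose the cells were low. Among the members, 20 in Co-Mac and 28 in VD-Mac had exactly 1 UMI of *Clec9a* and *Xcr1* together, and 39 and 68 further cells met the other conditions with 0. *Itgae* stood at exactly 1 UMI in 5 and 13 members, and 22 cells in each library met the other conditions with 0. *Csf1r*, the receptor of macrophage growth factor, was at its limit of 3 UMIs in 9 members of Co-Mac and 1 of VD-Mac, while 4 and 0 cells were just outside with 4 UMIs. In all, 35 cells of Co-Mac and 4 of VD-Mac were left out by *Csf1r* alone. *Ccr7* was at 1 UMI in 2 members of each library, and 6 and 5 cells were left out by it alone. *Clec9a* without *Xcr1* marked 45 members of Co-Mac and 50 of VD-Mac, both genes marked 8 and 2, and *Xcr1* alone marked 1 and 0. The positive part of the rule therefore rested almost wholly on *Clec9a* and *Itgae*, while *Csf1r* took away many more cells of Co-Mac than of VD-Mac.

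Set against markers of cDC1, the members bore the name only in part. Of 11 cDC1 markers, among them *Clec9a*, *Xcr1* and *Itgae* that had chosen the cells, 7 reached 20 CPM in Co-Mac and 9 in VD-Mac. Their summed level was 2415 CPM in Co-Mac members against 539.8 CPM in the other kept cells of that library, and 1504 against 578 CPM in VD-Mac. Part of that excess was set by the rule, and without its genes the sums were 1911 against 533 CPM and 1062 against 574 CPM. *Irf8* was found in all 54 members of Co-Mac and in 47 of 52 of VD-Mac. That did not set the members of VD-Mac apart, since 94.1% of the cells with at least 3 UMIs of *Ccr7* also had *Irf8* there, at 464 CPM against 353 CPM in members. *Batf3* stood below the other kept cells in Co-Mac, at a ratio of 0.428 (0.32 to 0.56). In VD-Mac its ratio was 0.947, with an interval that included 1 (0.76 to 1.16). *Xcr1* came to 16 UMIs in 9 cells of Co-Mac and 4 UMIs in 2 cells of VD-Mac. *Cadm1*, an adhesion molecule common to cDC1, came to 5 UMIs in Co-Mac and 0 in VD-Mac, and *Clnk* and *Cd8a* were at 0 UMIs in both. *Ccl17*, a chemokine on the list for other dendritic cells, stood at 3293 CPM in Co-Mac and 3200 CPM in VD-Mac. These values go partly against the name, so the members are called *Clec9a*+ *Itgae*+ cells here.

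Markers of other cell types were read over whole lists in the *Clec9a*+ *Itgae*+ cells. Of 10 genes of mature dendritic cells, 7 had a UMI in Co-Mac and 9 in VD-Mac, with summed levels of 94.1 and 187 CPM, led by *Marcksl1* (39.0 CPM) and *Socs2* (73.9 CPM). *Fscn1* was at 0 in Co-Mac and *Tmem150c* in both. The list sums were low beside 2967 and 3175 CPM in the other kept cells, and *Ccr7* of that list was held low by the rule. Of 10 genes of other conventional or monocyte-derived dendritic cells, 10 and 8 had a UMI, with 4086 and 3306 CPM led by *Ccl17*. Of 8 plasmacytoid genes, 4 had a UMI in either library, *Bst2* led with 222 and 145 CPM, and *Siglech*, *Ly6d*, *Klk1* and *Cox6a2* were at 0. Of 3 Langerhans-type genes, 3 and 2 had a UMI, with sums of 197 and 27.2 CPM led by *Cdh1*, and *Cd207* was at 0 in VD-Mac. Of 13 macrophage genes, 11 and 12 had a UMI, with 276 and 533 CPM, led by *Csf1r* in Co-Mac and by *C1qb* in VD-Mac, but the rule held *Csf1r* low and left out more cells of Co-Mac by it. *Mertk* and *Apoe* were at 0 in Co-Mac and *Mrc1* in VD-Mac. Of 6 monocyte genes, 5 and 2 had a UMI, with 466 and 43.8 CPM led by *Chil3*, and *Ccr2*, *Plac8*, *F13a1* and *Vcan* were at 0 in VD-Mac. Of 13 neutrophil genes, 8 and 6 had a UMI, with 658 and 33.2 CPM led by *S100a8*, and *Ly6g*, *Retnlg*, *Camp*, *Elane* and *Mpo* were at 0 in both. B lineage, T and NK and basophil or mast cell lists each summed to 1.15 CPM in Co-Mac and 0 in VD-Mac, and erythroid genes were at 0 in both. Of 4 stromal genes only *Pecam1*, an adhesion molecule also of leukocytes, had a UMI (20.7 and 49.8 CPM). Progenitor genes summed to 136 and 289.7 CPM, led by *Cd34* in Co-Mac and *Kit* in VD-Mac, with *Prtn3* and *Ctsg* at 0. The part of other cell types in the results was not tested.

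**Figure D1:**
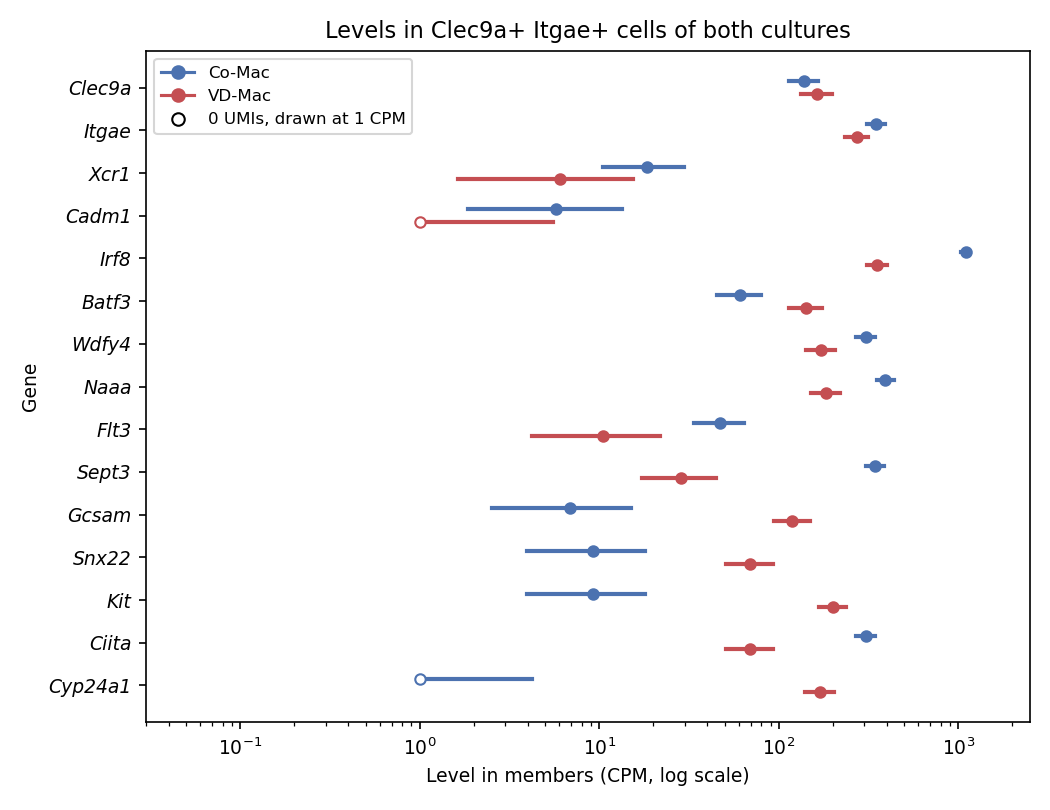
Levels of cDC1 genes and some genes that differed between cultures in the *Clec9a*+ *Itgae*+ cells of Co-Mac (blue) and VD-Mac (red), in CPM on a log axis, with exact 95% Poisson intervals of counting error; open points mark 0 UMIs. *Irf8* falls from 1097 to 353 CPM while *Gcsam* rises from 6.89 to 119 CPM.

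Apart from the genes of the rule, the *Clec9a*+ *Itgae*+ cells of both libraries shared a set of genes with lower levels in the other kept cells. The 15 genes with the largest ratios over those cells among genes with at least 50 CPM in both libraries, ranked by the smaller ratio of the libraries, began with *Itgae* and *Clec9a*, which the rule had used. *Tespa1*, which takes part in T cell receptor signaling, followed with 63.2-fold in Co-Mac (51.9 to 76.6) and 38.7-fold in VD-Mac (26.9 to 54.6). *Dmpk*, a kinase best known from muscle, was 35.3-fold and 21.6-fold higher than in the other cells. *Tcea3*, a factor of transcript elongation, was 29.8-fold and 20.9-fold higher. *Havcr2*, encoding the inhibitory receptor TIM-3, was 22.4-fold and 14.6-fold higher. TIM-3 is a known surface protein of cDC1. *Ckb*, brain-type creatine kinase, combined a high ratio with a high level, 792 CPM in Co-Mac and 3830 CPM in VD-Mac. *Cd34*, a glycoprotein of progenitors, was 12.0-fold higher than in other cells in Co-Mac and 23.1-fold in VD-Mac. *Ifitm1*, an interferon-induced membrane protein, was found in every member, at 5914 and 7638 CPM, but also in 47.5% and 67.6% of a neutrophil class described below and in 60.9% and 80.3% of the cells with at least 4 UMIs of *Csf1r*. The class II gene *H2-Ab1* was also in every member, at 7.58-fold and 8.01-fold the level of the other cells, but had a UMI in 88.4% and 90.2% of the cells with at least 3 UMIs of *Ccr7* too. *H2-Ab1* therefore differed in level more than in presence. *Slco3a1*, *Ppfia4*, *Asb2*, *Cd244* and *Gpr171* completed the set, with ratios from 7.16-fold to 14.0-fold. These ratios describe cells that were chosen by their own RNA and carry no test.

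Free RNA was gauged in cells rich in *S100a9* and *Csf3r*, a neutrophil class of 99 cells in Co-Mac and 71 in VD-Mac with median depths of 4569 and 4705 UMIs. In that class *Clec9a*, *Xcr1*, *Itgae*, *Cadm1*, *Gcsam*, *Snx22* and *Sept3* were found in 0 cells of either library, against an exact upper limit of 3.66% and 5.06%. With cells thinned to a common depth of 4000 UMIs, for which 2 members of each library and 46 and 31 neutrophil class cells were too shallow, *Irf8* was found in 88.5% of Co-Mac members and 68.0% of VD-Mac members, unthinned 100.0% and 90.4%. The neutrophil class showed *Irf8* in 1.89% and 5.00% of thinned cells (9.09% and 7.04% unthinned). *Irf8* was thus found in this class at a far lower share than in members. Deeper cells did hold RNA of the rule's genes, with *Clec9a* in 1.14% and *Itgae* in 1.85% of the Co-Mac cells with at least 3 UMIs of *Ccr7*, and in 5.57% and 5.27% of those with at least 4 of *Csf1r*. In VD-Mac, these shares were 1.38% and 1.35% for *Ccr7*, and 2.30% and 1.24% for *Csf1r*. Among all kept cells, 219 of Co-Mac and 160 of VD-Mac had *Clec9a* or *Xcr1*, and 240 and 184 had *Itgae*. Both conditions were met by 102 and 64 cells. Whether a single UMI of *Clec9a* in a member came from free RNA was not tested.

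Among 5691 genes that reached 20 CPM in at least 1 library, 453 were at least 2-fold higher in VD-Mac members than in Co-Mac members (7.96% of the genes compared) and 630 were at least 2-fold lower (11.1%). The median log2 ratio over all genes compared was −0.13. A gene is said to have risen or fallen where it passed 2-fold, which is a size and not a test. In member sums simulated with counting error only, 188 of 5280 unchanged genes (3.56%) passed 2-fold in either direction. Most of the largest gains were in genes near 0 in Co-Mac, and several of the largest losses were in genes of monocytes and neutrophils. Most Co-Mac UMIs of several genes in that second group lay in a few deep cells. *Tgfbi*, *Anxa3* and *Ccr2* were still lower in VD-Mac without such cells, as given below. In Co-Mac, 8 members had 10 or more UMIs of *Lyz2*, the lysozyme of myeloid cells, ranging from 18 to 401, while the next highest member had 7. In VD-Mac, 2 members had 18 and 32 UMIs of *Lyz2*, and the next highest had 4. The 8 cells of Co-Mac held 21005 to 43833 UMIs each, with a median of 27890 against 13900 in the other members. They held 28.1% of the members' UMIs but 100.0% of the *Ly6c2*, 98.7% of the *Lpl*, 97.8% of the *Cybb*, 96.0% of the *Cebpb*, 95.7% of the *S100a8*, 90.5% of the *Mmp12* and 87.1% of the *Ccr2* UMIs. Their share of the *Clec9a* UMIs was 12.5% and of the *Itgae* UMIs 19.1%. Whether these barcodes held more than 1 cell was not tested. Without the members at 10 or more *Lyz2* UMIs, a limit chosen after the data were seen, 587 of 5548 genes were at least 2-fold higher (10.6%) and 526 at least 2-fold lower (9.48%), with a median log2 ratio of −0.01. Of the earlier calls, 405 of 453 higher and 416 of 630 lower genes were called again. The monocyte list then summed to 28.7 and 3.12 CPM and the neutrophil list to 39.9 and 34.4 CPM. The macrophage list went the other way, with 177 and 506 CPM. Values without these cells are given below for a part of the genes and lists.

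**Figure D2:**
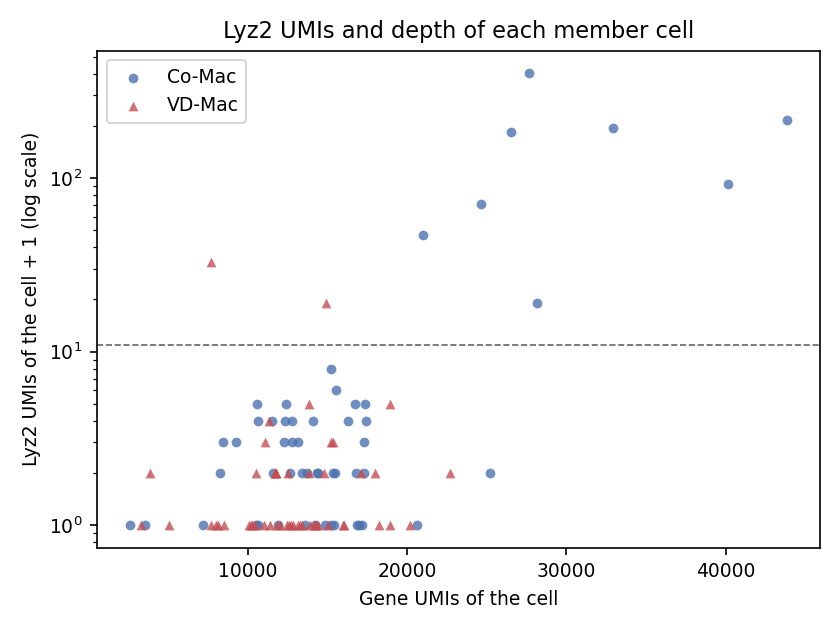
*Lyz2* UMIs plus 1 (log axis) against gene UMIs of each *Clec9a*+ *Itgae*+ cell, with Co-Mac members as blue circles, VD-Mac members as red triangles and a dashed line at 10 UMIs of *Lyz2*. The 8 Co-Mac cells above the line hold 21005 to 43833 UMIs, whereas the 2 VD-Mac cells above it lie within the range of the others.

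Cells of VD-Mac carried RNA of the VD3-degrading enzyme. *Cyp24a1* (chr2:170482708-170497145, minus strand, GRCm38) came to 0 UMIs in the *Clec9a*+ *Itgae*+ cells of Co-Mac and 112 UMIs in those of VD-Mac, at least 49.1-fold higher. It was found in 0 of 54 members of Co-Mac (exact upper limit 6.60%) and in 30 of 52 members of VD-Mac (57.7%). Its highest count in a cell was 13, and 5 cells held 44 of the UMIs. The neutrophil class of VD-Mac showed *Cyp24a1* in 19.7% of cells (11.2% to 30.9%), and a share of that size cannot be told apart from free RNA. After thinning, the shares were 34.0% in members and 15.0% in the neutrophil class, with overlapping intervals (21.2% to 48.8% and 5.71% to 29.8%). The level in members, 169 CPM, lay below the 316 CPM of the other kept cells of VD-Mac. *Vdr*, the receptor itself, rose from 7 to 39 UMIs, 7.32-fold (3.24 to 19.4). *Rxra*, its partner, fell 4.13-fold (1.82 to 10.96), from 38 to 7 UMIs, but turned to a log2 ratio of 0.66 with *Clec9a* and *Xcr1* both required. Of 8 genes of the vitamin D system compared, 2 were higher and 2 lower (against 7.96% and 11.1% of all genes), the latter with *Ncoa1*, and the median log2 ratio was −0.02. *Ncoa1* also turned, to a log2 ratio of 1.66 with *Clec9a* and *Xcr1* both required and to 0.47 after thinning.

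The 10 largest gains among genes with at least 50 CPM were led by *Gdf15*, a stress-induced cytokine of the TGF-beta family. *Gdf15* came to 0 UMIs in Co-Mac and 254 in VD-Mac, in 32 of 52 cells, and was at least 111-fold higher. The other kept cells showed 35.7-fold. *Hbegf*, a growth factor of the EGF family, rose from 2 to 76 UMIs, 50.0-fold (13.4 to 419.9), against 17.0-fold in the other cells. *Ifitm6*, a relative of *Ifitm1*, came to 0 and 107 UMIs and was at least 46.9-fold higher, in 34 VD-Mac cells. It was 21.5-fold higher in the other cells. *Cd69*, an early activation marker that holds lymphocytes in tissues, rose from 10 to 243 UMIs, 31.9-fold (17.1 to 67.5), against 2.79-fold in the other cells. *Pou2f2*, the octamer-binding transcription factor Oct-2, rose 29.9-fold (11.3 to 112) against 5.22-fold in the other cells, and 88.1-fold (15.4 to 3516) without the *Lyz2*-rich cells. *Trim16* was 25.0-fold higher (8.13 to 125) in members, 55.8-fold (9.62 to 2241) without those cells and 1.78-fold in other cells, and *N4bp2l1* 27.6-fold (7.18 to 235) and 1.60-fold. For *Cd69*, *Pou2f2*, *Trim16* and *N4bp2l1* the ratio in members was thus far above that in the other cells, a difference that was not tested. *H2-Q7* and *H2-Q6*, class I-like genes of the Qa-2 family, rose 50.0-fold (13.4 to 419.9) and 28.9-fold (7.54 to 246), but to log2 ratios of only 2.53 and 2.36 without *Itgae* in the rule. In the other kept cells they rose 3.47-fold and 3.59-fold. Their near-identical sequences leave the split of reads between them uncertain. Of the 76 *H2-Q7* UMIs in VD-Mac, 27 lay in 1 cell.

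The 10 largest losses began with *Mgl2*, a galactose-type lectin of other dendritic cells and macrophages. *Mgl2* fell from 355 UMIs in 37 cells to 4 UMIs in 2 cells, 67.5-fold (26.1 to 249), and 63.1-fold without the *Lyz2*-rich cells. *Mfge8*, a secreted bridge to dying cells, fell from 1218 to 63.4 CPM, 19.2-fold (14.1 to 26.8), and 21.9-fold without those cells. *S100a4* fell 24.2-fold (14.8 to 42.8) and 18.7-fold without them. *Stfa2*, a cathepsin inhibitor of the stefin family whose copies share sequence, fell from 98 to 2 UMIs, 37.3-fold (10.05 to 312). None of the *Stfa2* UMIs lay in the *Lyz2*-rich cells, and the other kept cells showed 2.78-fold more in VD-Mac. *Mmp12*, a macrophage elastase, came to 222 and 0 UMIs and was at least 56.3-fold lower, but at least 7.15-fold without the *Lyz2*-rich cells. *Ccr2*, the chemokine receptor of monocytes, came to 116 and 0 UMIs and was at least 29.4-fold lower, at least 5.11-fold without those cells. *Tgfbi* was 47.9-fold lower (8.29 to 1923) and 15.3-fold (2.36 to 645) without them, and *Anxa3* 33.5-fold (5.70 to 1352) and 8.18-fold (1.10 to 363). *S100a8*, a subunit of calprotectin, was 33.3-fold lower (16.7 to 77.7) and 1.92-fold without them. *Ly6c2* was 36.9-fold lower (9.94 to 309) and at 0 UMIs in both libraries without them. So *Mgl2*, *Mfge8*, *S100a4* and *Stfa2* fell by 18.7-fold or more in the remaining cells, whereas the fall of *S100a8* and *Ly6c2* lay in the *Lyz2*-rich cells. The sequence of *Ly6c2* is close to that of *Ly6c1*, which leaves its count uncertain.

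Without the *Lyz2*-rich cells, other genes entered the 10 largest in either direction. *Rac2*, the GTPase of blood cells, rose from 57.4 to 874 CPM in all members (15.2-fold, 11.4 to 20.7), and 68.0-fold without those cells. It was found in 15 of 54 and 49 of 52 members, and was 2.06-fold higher in the other kept cells. *C1qb* and *C1qc*, complement chains made by macrophages, rose 12.8-fold (6.87 to 26.4) and 11.0-fold (4.38 to 35.8), and without the *Lyz2*-rich cells 47.5-fold (12.8 to 397) and 40.1-fold (6.81 to 1623), with 38 of the 107 *C1qb* UMIs of VD-Mac in 1 cell. With *Csf1r* left out of the rule, *C1qb* and *C1qc* turned to log2 ratios of −0.35 and −0.31. Among the losses, *Ndrg2*, *Emp2*, *Cldn1*, *Kcnn4*, *Cd44* and *Bcl2l1* entered. *Ndrg2* was 15.7-fold lower (5.14 to 78.3) in all members and 59.3-fold (10.2 to 2381) without those cells. *Cldn1*, a tight junction protein, fell from 42 to 3 cells with a UMI, 17.1-fold (6.46 to 64.2). *Kcnn4*, a potassium channel of immune cells, fell from 35 to 3 cells, 16.0-fold (5.22 to 79.5). *Cd44*, the receptor of hyaluronan, fell 11.8-fold (5.22 to 33.0), and *Bcl2l1*, which encodes the survival factor Bcl-xL, 10.7-fold (3.40 to 53.7).

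**Figure D3:**
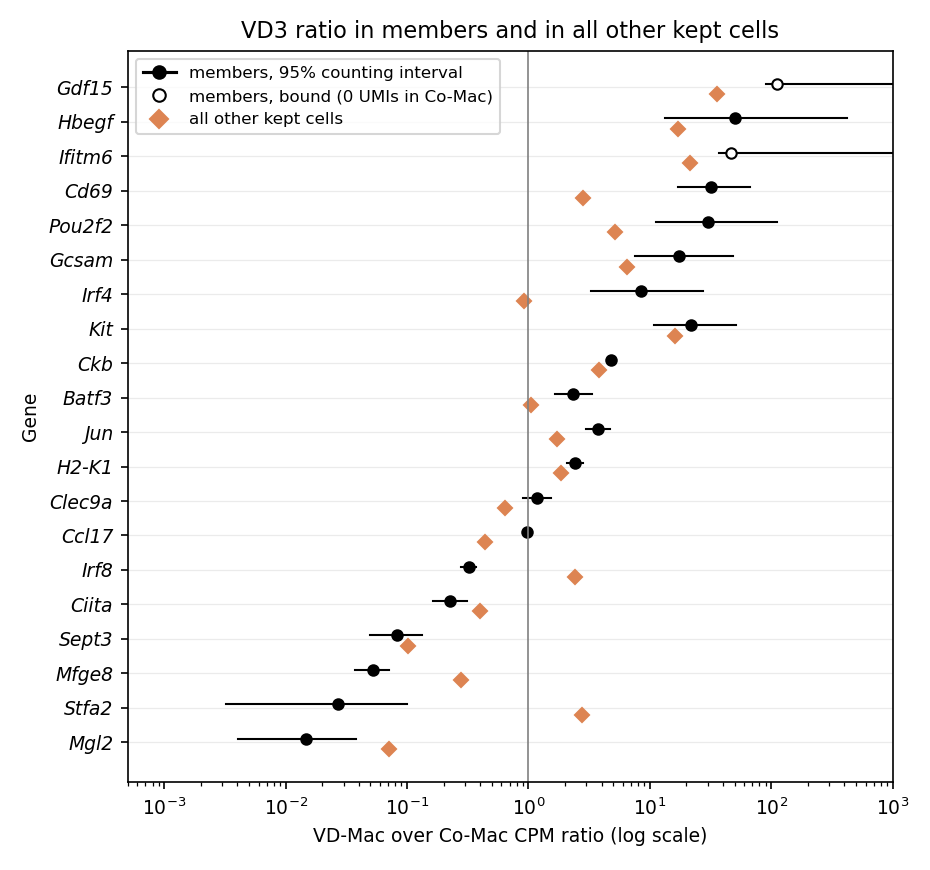
Ratio of VD-Mac over Co-Mac CPM (log axis) for 20 genes named in the text, in *Clec9a*+ *Itgae*+ cells (black, with 95% counting interval; open where Co-Mac had 0 UMIs, so that the point is a lower bound) and in all other kept cells (orange). *Irf8* and *Stfa2* lie on opposite sides of 1 in the 2 sets of cells, and the difference was not tested.

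Genes of cDC1 identity went in different directions under VD3. Of 19 compared, 3 were higher, 7 lower (against 7.96% and 11.1% of all genes) and 9 neither, with a median log2 ratio of −0.72 beside −0.13 over all genes. These include *Clec9a* and *Itgae* of the rule, without which 3 were higher and 7 lower of 17 and the median was −0.83. With *Clec9a* and *Xcr1* both required, the median of the list turned to 0.71. *Irf8* (chr8:120736358-120756694, plus strand) fell from 1097 CPM (1029 to 1169) to 353 CPM (309 to 401), 3.11-fold (2.69 to 3.60), and its median per cell went from 17.5 to 3 UMIs. In the other kept cells the same gene rose from 126 to 307 CPM, 2.43-fold, and it rose 2.08-fold in cells with at least 3 UMIs of *Ccr7* and 2.18-fold in those with at least 4 of *Csf1r*. The fall of *Irf8* in members was thus opposite to the direction in the rest of the cultures, although the difference was not tested. *Sept3*, a septin, fell from 344 to 28.7 CPM, 12.0-fold (7.56 to 20.2), and from 51 to 13 cells. *Flt3*, the receptor of the growth factor that cDC1 depend on, fell from 41 UMIs in 26 cells to 7 UMIs in 3 cells, 4.46-fold (1.98 to 11.8). *Naaa*, a lysosomal amidase, fell 2.15-fold (1.74 to 2.67), but turned to a log2 ratio of 1.17 with *Clec9a* and *Xcr1* both required. *Gcsam*, a signaling protein of germinal centre B cells that also marks cDC1, went the other way, from 6 UMIs in 6 cells to 79 UMIs in 35 cells, 17.3-fold (7.61 to 48.6). *Snx22*, a sorting nexin, rose from 8 to 46 UMIs, 7.56-fold (3.53 to 18.5). In the other kept cells, *Gcsam* and *Snx22* rose 6.54-fold and 4.79-fold, while *Sept3*, *Flt3* and *Naaa* fell 9.79-fold, 2.30-fold and 2.57-fold. *Batf3* rose from 60.8 to 142 CPM, 2.33-fold (1.65 to 3.33), against 1.05-fold in the other cells. *Wdfy4*, which is needed to present antigen of dead cells on class I, was 1.78-fold lower (1.42 to 2.23). *Clec9a* and *Itgae* chose the cells, and their levels, 138 and 163 CPM for *Clec9a* and 348 and 273 CPM for *Itgae*, are given as a description.

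In VD-Mac, 2 members stood apart by *Clec9a*. They had 13 and 11 UMIs of *Clec9a*, while the next highest member of VD-Mac had 4 and the highest of Co-Mac had 5. The same cells had 1 and 3 UMIs of *Xcr1*, all of the *Xcr1* in VD-Mac members. They also had 37 and 22 UMIs of *Irf8*, within the range of Co-Mac, where the highest cell had 41. *Cd34* stood at 8 UMIs in each and *Cyp24a1* at 0 in each. With *Clec9a* and *Xcr1* both required, 8 cells of Co-Mac and these 2 of VD-Mac were left, and *Irf8* turned to a log2 ratio of 0.43. They held 24 of the 108 *Clec9a* and 59 of the 234 *Irf8* UMIs of VD-Mac members, and without them *Irf8* stood at a log2 ratio of −1.98. Whether the other VD-Mac members, most with 1 UMI of *Clec9a*, are the same kind of cell was not tested, so the values of VD-Mac may describe other cells. These cells were singled out after their values were seen.

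Transcription factors of myeloid cells were 5 higher and 6 lower of 20 compared (against 7.96% and 11.1% of all genes), with a median log2 ratio of −0.05. Without the *Lyz2*-rich cells they were 7 higher and 4 lower of 19 with a median of 0.16, and the median was 1.03 without members holding *Mki67* or *Top2a*. *Irf4*, a factor of other dendritic cells, rose from 5 to 32 UMIs, 8.41-fold (3.25 to 27.7), against a ratio of 0.921 in the other cells. Its log2 ratio of 3.07 went to 1.29 without *Itgae* in the rule and to 4.98 with at least 2 UMIs of *Clec9a* and *Xcr1*. *Notch2*, a receptor that guides dendritic cell subsets, was 2.41-fold higher (1.63 to 3.60). *Bcl6*, a repressor with a role in cDC1, fell from 39 to 4 UMIs, 7.42-fold (2.68 to 28.6). *Zeb2*, a zinc finger transcription factor, came to 32 and 2 UMIs and had too few UMIs for a ratio without the *Lyz2*-rich cells. *Cebpb*, a factor of monocytes and neutrophils, was 5.36-fold lower (3.51 to 8.50) over all members but 2.94-fold higher without the *Lyz2*-rich cells. Its direction therefore depended on those cells. *Kit*, the stem cell factor receptor, lay outside these lists, was chosen after its values were seen, and rose from 8 UMIs in 7 cells to 133 UMIs in 43 cells, 21.9-fold (10.8 to 51.7), and 16.1-fold in the other cells.

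Genes of antigen presentation on class I were 4 higher and 1 lower of 23 compared (17.4% and 4.35%, against 7.96% and 11.1% of all genes), with a median log2 ratio of 0.06. *H2-K1* rose 2.42-fold (2.08 to 2.83), *H2-D1* 2.36-fold (2.06 to 2.71), the light chain *B2m* 2.38-fold (2.03 to 2.79) and the peptide transporter *Tap2* 2.05-fold (1.54 to 2.75). *H2-K1* was 1.87-fold higher in the other kept cells. The size of the rise depended on the rule, since *H2-D1* and *B2m* stood at log2 ratios of 0.74 and 0.68 without *Itgae* in it, and *H2-K1*, *H2-D1* and *B2m* at 0.25, 0.58 and −0.048 with *Clec9a* and *Xcr1* both required. The lower gene, *Cybb* of the phagocyte oxidase, was 7.00-fold lower over all members, but only 2 and 5 UMIs were left without the *Lyz2*-rich cells, too few to compare. Genes of class II were 1 higher and 3 lower of 13 (against 7.96% and 11.1% of all genes), with a median log2 ratio of −0.58, and 5 lower with a median of −0.85 without the *Lyz2*-rich cells. *Ciita*, the master activator of class II genes, fell from 305 to 69.4 CPM, 4.40-fold (3.21 to 6.16), but turned to a log2 ratio of 0.31 with *Clec9a* and *Xcr1* both required. *H2-DMb2*, a chain of the peptide exchanger, fell 4.09-fold (2.63 to 6.61). The chains *H2-Ab1*, *H2-Aa* and *H2-Eb1* were lower by less, 1.53-fold, 1.47-fold and 1.35-fold, and turned to log2 ratios of 0.74, 0.79 and 0.91 with both marker genes required. *Cd74*, the invariant chain, was the most abundant of the list, with 13888 and 15802 CPM (ratio 1.14, 1.11 to 1.17). *Lgmn*, a lysosomal protease, was 4.34-fold higher (2.09 to 9.87), but turned to a log2 ratio of −0.28 without *Itgae* in the rule.

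Costimulatory and checkpoint genes were 4 higher and 2 lower of 14 (against 7.96% and 11.1% of all genes), with a median log2 ratio of 0.43. *Cd274*, encoding PD-L1, rose 2.77-fold (1.57 to 5.06), but only to a log2 ratio of 0.28 without *Itgae* in the rule, and *Vsir*, encoding the inhibitory protein VISTA, 2.96-fold (1.45 to 6.41). *Slamf7* fell from 34 to 4 UMIs, 6.47-fold (2.31 to 25.1), and *Sirpa* 8.37-fold (3.38 to 26.8), but *Sirpa* only to a ratio of 0.978 without the *Lyz2*-rich cells. Cytokines were mostly too low to compare. Of 5 compared, *Gdf15* and *Tnf* were higher and 0 lower (against 7.96% and 11.1% of all genes), with *Tnf* rising from 17 to 50 UMIs, 3.87-fold (2.19 to 7.15). *Il12b* came to 0 and 1 UMI, and *Il10* and *Il6* to 0 in both. Chemokines and their receptors were 1 higher and 6 lower of 9 (against 7.96% and 11.1% of all genes), with a median log2 ratio of −1.11, and 4 lower of 9 without the *Lyz2*-rich cells. *Ccl17*, the most abundant, hardly moved in members (ratio 0.972, 0.918 to 1.03), while its ratio was 0.438 in the other kept cells. That too depended on the rule, with log2 ratios of −0.51 without *Itgae* in it and −3.06 with *Clec9a* and *Xcr1* both required. *Ccl4*, an inflammatory chemokine, rose from 2 to 27 UMIs, 17.8-fold (4.46 to 154).

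Receptors that sense microbes were 9 lower and 1 higher of 13 (against 11.1% and 7.96% of all genes), with a median log2 ratio of −2.44, and 6 lower of 12 with a median of −1.57 without the *Lyz2*-rich cells. The median was −0.17 with *Clec9a* and *Xcr1* both required. The lectins *Clec10a* and *Cd209a* fell 10.5-fold (4.29 to 33.4) and 8.62-fold (3.76 to 24.3), alongside *Mgl2*. *Unc93b1*, which carries nucleic acid-sensing Toll-like receptors to endosomes, rose 3.87-fold (3.06 to 4.95). Genes of tolerance and retinoid metabolism were 2 higher and 2 lower of 6 (against 7.96% and 11.1% of all genes), with a median log2 ratio of 0.08. It was 0.71 without the *Lyz2*-rich cells, with 3 higher, and −0.87 with *Clec9a* and *Xcr1* both required, so that the list had no steady direction. *Il4i1*, an amino acid oxidase, rose from 2 to 20 UMIs, 13.1-fold (3.19 to 116), with 10 of the 20 UMIs in 1 cell, but turned to a log2 ratio of −0.13 without *Itgae* in the rule. *Entpd1*, the ectoenzyme CD39, fell 2.08-fold (1.13 to 4.04). Another list held genes that the study named for *Trem2* macrophages or for other graft cells. Of 9 compared, 8 were lower and 0 higher (against 11.1% and 7.96% of all genes), with a median log2 ratio of −4.15. The list includes *Cd163*, which the study found lacking in its *Trem2* cluster, and *Ccr2*, which it saw decrease toward those cells. *Mrc1*, *Plac8* and *Ly6c2* were named there for other clusters. As *Ccr2* and *Ly6c2* were among the 8 lower, the count and median do not measure a loss of *Trem2* macrophage genes. The study named the genes of this list from its graft library and some also from these cultures, so the list is not wholly independent of the data. Without the *Lyz2*-rich cells, 3 of 5 were lower, the median was −2.35 and *Lpl*, a lipase that was 17.7-fold lower over all members, was left with 5 and 8 UMIs, too few to compare. For this list the median was −0.88 without members holding *Mki67* or *Top2a*. With *Csf1r* at 0 UMIs, or with *Clec9a* and *Xcr1* both required, it was −1.51.

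Interferon-stimulated genes were 6 higher and 0 lower of 11 (against 7.96% and 11.1% of all genes), with a median log2 ratio of 1.05. That median was 0.47 after thinning to 4000 UMIs and 0.46 with *Clec9a* and *Xcr1* both required. *Ifitm3*, a membrane protein that hinders virus entry, was the most abundant and rose from 713 to 4436 CPM, 6.22-fold (5.71 to 6.80), with 5.89-fold in the other cells, but turned to a log2 ratio of −0.86 with *Clec9a* and *Xcr1* both required. *Irf7* and *Gbp2* rose 6.57-fold (1.86 to 35.4) and 3.78-fold (2.10 to 7.15), and *Irf1* from 9 to 23 UMIs. *Ifit1*, *Ifit2*, *Ifit3* and *Rsad2*, which interferon induces strongly, were at 0 UMIs in both libraries. Immediate early and stress genes were 4 higher and 1 lower of 15 (against 7.96% and 11.1% of all genes), with a median log2 ratio of 0.72. *Jun*, *Zfp36* and *Fos* rose 3.72-fold (2.96 to 4.71), 2.64-fold (2.14 to 3.26) and 2.53-fold (1.88 to 3.44), and *Egr2* fell 3.25-fold (1.66 to 6.95).

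Genes of cholesterol and fatty acid synthesis were 8 lower and 0 higher of 13 (against 11.1% and 7.96% of all genes), with a median log2 ratio of −1.11, and 7 of 13 were lower without the *Lyz2*-rich cells. The median turned to 0.11 with *Clec9a* and *Xcr1* both required. *Fdps*, an enzyme of the sterol pathway, fell 3.23-fold (1.85 to 5.97). Genes of glycolysis and the hypoxia response were 3 lower and 0 higher of 17 (17.6% lower, against 11.1% of all genes), with a median log2 ratio of −0.44. *Pfkp*, a phosphofructokinase, fell from 234 to 34.7 CPM, 6.75-fold (4.37 to 10.9), *Hk2* 4.18-fold (1.95 to 10.3) and *Tpi1* 2.56-fold (1.77 to 3.78). Adhesion and migration genes were 7 lower and 0 higher of 16 (against 11.1% and 7.96% of all genes), with a median log2 ratio of −0.53, and 4 lower of 14 without the *Lyz2*-rich cells. *Cdh1*, encoding E-cadherin, the ligand of CD103, fell from 147 to 24.1 CPM, 6.09-fold (3.61 to 11.0). *Epcam* fell 9.89-fold (2.48 to 86.0) and *Itgam* 19.0-fold (5.00 to 161). *Itgb7*, the partner chain of *Itgae*, was 1.70-fold higher (1.38 to 2.09).

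RNA of dividing cells was found in a part of the *Clec9a*+ *Itgae*+ cells. *Mki67* or *Top2a*, which mark dividing cells, had a UMI in 22 members of Co-Mac (40.7%, 27.6% to 55.0%) and 13 of VD-Mac (25.0%, 14.0% to 39.0%). These intervals overlapped, and 13 and 9 members had at least 2 UMIs of both genes together. After thinning, the shares were 30.8% and 20.0% in members and 41.5% and 40.0% in the neutrophil class. The latter class also held *Prtn3* of precursor cells and is no gauge of free RNA here. Cells with at least 3 UMIs of *Ccr7* showed 8.37% (7.37% to 9.45%) and 7.02% (6.17% to 7.96%), below the members (18.7% to 45.1% and 10.0% to 33.7%), whereas those with at least 4 of *Csf1r* showed 43.0% and 42.6%. Of 25 cell cycle genes compared, 0 were higher and 2 lower (against 7.96% and 11.1% of all genes), with a median log2 ratio of −0.22. Without the *Lyz2*-rich cells, which held 73.9% of the *Mki67* UMIs of Co-Mac members, 5 were higher and 1 lower of 22 and the median was 0.61. The direction of the list therefore depended on the *Lyz2*-rich cells.

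Several genes that set the members apart from other cells also moved with VD3. *Asb2*, a subunit of a ubiquitin ligase, rose from 28 to 52 cells with a UMI and 9.35-fold in level (6.83 to 13.1), and 11.5-fold in the other cells. *Ckb* rose 4.84-fold (4.44 to 5.27) and 3.85-fold in the other cells. *Tespa1* fell 2.78-fold (1.96 to 4.03) and *Gpr171* 2.18-fold (1.64 to 2.92). *Cd34*, *Dmpk*, *Slco3a1*, *Ppfia4* and *Havcr2* had ratios between 0.700 and 1.75.

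Promoter sequence was read for the 20 genes with the largest gains and losses, since VD3 acts on DNA through its receptor. RefSeq promoters (GRCm38.p6, 300 bases each) matched 15 of the 20, with 18 promoters in all, while *Hbegf*, *Cyp24a1*, *Cd69*, *Trim16* and *Anxa3* are only named. The promoters of *Ifitm6*, *Pou2f2* and *N4bp2l1* lay inside the gene positions used here and not at the gene start. So did another promoter of *Gdf15* and of *Mmp12*. The hexamers AGGTCA and AGTTCA of the vitamin D response element were searched on both strands, alone and as a pair spaced by 3 bases. A hexamer was found for 4 of 6 genes that rose and 3 of 9 that fell, counting any promoter of a gene. Those 4 genes include *H2-Q6* and *H2-Q7*, whose sequences are near-identical. By promoter, a hexamer was in 7 of 18 (38.9%) against 27.7% of all 32851 promoters, and this difference was not tested. A spaced pair was found in 0 of the 18 and in 0.0548% of all promoters. *Gdf15* and *Ifitm6*, which were at 0 UMIs in Co-Mac, are shown because both hold a hexamer, in capitals. *Gdf15* lies on the minus strand of chr8:70632407-70632706 and *Ifitm6* on the minus strand of chr7:141016843-141017142, and another *Gdf15* promoter in the table held 0. A match describes letters and not a bound site.
Gdf15: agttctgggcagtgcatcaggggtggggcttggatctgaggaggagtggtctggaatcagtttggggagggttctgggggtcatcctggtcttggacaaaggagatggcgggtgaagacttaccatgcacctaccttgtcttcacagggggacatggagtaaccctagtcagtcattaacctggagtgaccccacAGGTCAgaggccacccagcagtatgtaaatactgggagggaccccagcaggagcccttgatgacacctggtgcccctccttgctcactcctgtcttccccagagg
Ifitm6: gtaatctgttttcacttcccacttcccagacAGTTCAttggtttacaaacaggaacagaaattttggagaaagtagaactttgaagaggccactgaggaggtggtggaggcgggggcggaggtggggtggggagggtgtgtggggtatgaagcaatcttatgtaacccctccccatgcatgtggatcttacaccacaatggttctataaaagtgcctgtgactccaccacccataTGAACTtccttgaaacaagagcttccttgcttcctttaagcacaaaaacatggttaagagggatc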

How the data were processed

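The authors deposited raw UMI counts per mouse gene and barcode for each culture, made with Cell Ranger 3.1.0 per the file headers and not normalized. The submitters' processing notes name mm9, Cell Ranger and Seurat 3.1.1, and the study's methods name a human genome, whereas the features carry mouse Ensembl identifiers. The build is therefore uncertain, and gene positions are those of the same identifiers in GENCODE on GRCm38. Counts of 31053 genes were used, and 10 hashtag features held 0 UMIs in both cultures.

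Cells were kept as stated in the study's methods, with the minimum of 300 read as genes. The filters took 306 and 352 barcodes for genes, 1 and 0 for UMIs and 604 and 960 for mitochondrial UMIs, some on several counts. No doublet caller was run and doublets were kept. UMIs were summed over members, scaled to CPM, and compared where the higher library had at least 20 CPM. A count of 0 stood as 3 UMIs, and no ratio was given where that would turn the direction of the counts or where both counts were 3 or less. The first of these conditions was settled after the alternatives had been seen. The 95% intervals are exact, after Poisson where a level is given, after Clopper and Pearson where a share is given, and from the binomial given the total where a ratio is given. Shares of cells were also taken after thinning to 4000 UMIs with a fixed seed.

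Named genes were those of the rule and *Gcsam*, the 10 largest and 10 smallest ratios with at least 50 CPM (without mitochondrial, ribosomal protein, Gm, Rik and Y-linked genes and *Xist*), the 15 with the largest ratio over other kept cells, and examples from each list. The members and lists were chosen with earlier results of these data known. Alternatives covered the rule, the mitochondrial limit, depth, cycling and *S100a8* or *S100a9* cells, scaling, the CPM minimum and a pseudocount of 5 CPM. The steps ran in Python 3.11.15 with numpy 2.4.6, scipy 1.17.1, pandas 2.3.3 and matplotlib 3.10.9 and were tested on simulated data. The graft library was not used here.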

Additional observations from a re-analysis of the deposited data

How the results depend on the processing

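The small number of members, 1 library per condition and the few UMIs of *Clec9a* and *Xcr1* per cell limit these results, and genes under 20 CPM were mostly below what this depth can compare. No paired analysis was possible because the cultures share only replicate number 1 and the results come from no test. Of 1953 gene values over 17 of the 19 alternatives, 31 of those at least 2-fold in the values reported turned direction, and 85 did so with smaller ones counted, while the settings that changed only the CPM minimum have no values per gene. Leaving out members with 10 or more *Lyz2* UMIs, leaving out those with 10 or more *Clec9a* UMIs, and setting every 0 to 3 UMIs were chosen after seeing the data. Beyond the settings below, the counts of higher and lower genes stayed within 1.5 times the values reported. The causes of the changes were not tested.

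Members were 0.468% of Co-Mac and 0.272% of VD-Mac cells with at least 2 UMIs of *Clec9a* and *Xcr1*, and 1.18% of Co-Mac cells under 5% mitochondrial UMIs. With *Clec9a* and *Xcr1* both required they were 0.110% and 0.0227%, 8 and 2 cells. There 1238 genes were higher, and log2 ratios turned to 0.85 for *Gpr171*, 0.43 for *Irf8*, 1.17 for *Naaa*, 0.66 for *Rxra*, 1.66 for *Ncoa1*, −0.048 for *B2m*, 0.31 for *Ciita*, 0.025 for *Cd209a*, −0.86 for *Ifitm3*, 0.078 for *Hk2* and 0.11 for the median of cholesterol and fatty acid synthesis. The medians of cDC1 identity and class II turned from smaller values to 0.71 and 0.61. Without *Itgae* in the rule, members were 1.05% and 0.839%, with *Lgmn* at −0.28, *Il4i1* at −0.13 and *Chil3* at 0.013. With *Csf1r* at 0 UMIs they were 0.234% and 0.431%, 842 genes were higher, and *Cebpb* stood at 0.57, *Cybb* at 0.21 and *Lpl* at 2.12. Without *Csf1r* in the rule they were 1.23% of Co-Mac, with *C1qb* at −0.35 and *C1qc* at −0.31.

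Without members holding *Mki67* or *Top2a*, 758 genes were higher, and *Cebpb* stood at 1.56, *Cybb* at 0.88, *Sirpa* at 1.21, *Lpl* at 1.30, *Cd63* at 1.06 and *Chil3* at 3.64. Without those holding 5 or more *S100a8* and *S100a9* UMIs, *Cebpb* stood at 0.36 and *Chil3* at 1.47. Without the *Lyz2*-rich cells, *Cebpb* stood at 1.55, *Cybb* at 1.29, *Lpl* at 0.65 and *Cd63* at 0.26, of which *Cybb* and *Lpl* were under 20 CPM there and say little. Thinning to 4000 UMIs gave 971 higher genes and 0.47 for *Ncoa1*, a minimum of 50 CPM 213 higher and 273 lower, and no minimum 1078 higher and 1468 lower. Centring on the median ratio gave 546 higher and 516 lower of 5691 genes, where CPM gave 453 and 630. Setting every 0 to 3 UMIs left 453 and 630, but gave 1728 and 1898 without a minimum and 2223 higher with *Clec9a* and *Xcr1* both required, where 24 of the named genes would then turn direction.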
